A study of Arabidopsis thaliana with 22 samples.

Results

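The loci described here are 125 of the 5224 non-coding loci with values in this RNA-seq study of Arabidopsis thaliana roots: long, abundantly read loci whose level stayed close to its mean in every group of samples. They were chosen from their measured values. First, 6 loci that took more than 2% of the estimated counts of any library were set aside. CPM, the counts per 1000000 reads, was then computed over the 5218 loci left, of which 2594 had reads. A locus was kept when it was over 200 nt long, averaged at least 200 CPM over the 22 libraries, and had each of its 8 group means within 0.5 log2 units of the mean of those 8 means. Length and level left 374 loci, of which 125 also met this last condition. The largest departure of a group mean from the mean of the 8, in log2 units, is called the band of a locus below. Because the band used every genotype, zone and treatment, the small differences between groups are a property of the choice and are given as a description.

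RNA came from roots of 11-day-old plants grown in short days and was sequenced with a stranded mRNA kit, from the meristematic-elongation zone (MEZ), where cells divide and lengthen, or the differentiation zone (DZ), where they take on their final form. Wild-type plants of the Ws accession stood beside the proscoop12 mutant, which carries a defect in PROSCOOP12, the gene for the precursor of the secreted peptide SCOOP12. The labels do not name the mutant allele. Plants of either genotype were given water (control) or 100 nM SCOOP12. The 8 groups were Ws MEZ control, Ws MEZ SCOOP12, proscoop12 MEZ control, proscoop12 MEZ SCOOP12 and the same 4 for DZ, with 3 libraries each except Ws MEZ SCOOP12 and Ws DZ control, which had 2 each. The labels do not say whether replicates came from separate plantings, and a p-value here reflects the spread between these libraries, which may be technical. None of the 11 genes that would check the labels, namely root zone markers, PROSCOOP12 and its receptor gene MIK2, has a value here (0 of 11 listed), so neither zone nor genotype could be checked against a marker. The file names of 2 libraries, Ws DZ SCOOP12 replicate 3 and proscoop12 DZ control replicate 3, each give the other's group. The labels were kept. Without these 2 libraries the same rule gave 123 loci, 113 of them among the 125, and with their labels exchanged it gave 135 loci, 124 of them among the 125.

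Long non-coding RNAs are transcripts without a long reading frame. Some arise opposite a coding gene as natural antisense transcripts, which can pair with the sense transcript or affect its transcription. Others are precursors of small RNAs: the TAS transcripts are cut after a microRNA binds them and are then made into trans-acting small interfering RNAs. Structural RNAs such as ribosomal, small nuclear and small nucleolar RNAs are non-coding too, and form the machines of translation, splicing and rRNA processing.

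RefSeq's annotation of the TAIR10.1 assembly, matched by locus name, put 76 of the 125 loci in the class lncRNA, 25 in ncRNA and 18 in misc_RNA. A further 2 are small nucleolar RNA genes, among them U3D (AT5G54075), whose RNA guides early cleavage of the rRNA precursor. The annotation also holds 1 small nuclear RNA gene, U2.3 (AT3G57765), whose RNA pairs with the branch site of introns, and 1 ribosomal RNA gene, AT2G01010. The remaining 2, ATCG00950 and ATCG00920, bear plastid locus names and were not matched. They are 2810 and 1491 nt long, as are the plastid genes that RefSeq calls rrn23S and rrn16S. For these 6 loci the description as long non-coding RNA loci goes against the annotation or the length. AT2G01010 is also 99.9% identical over 1808 nt to AT3G41768, an rRNA locus that took up to 45.8% of a library and was set aside. How the counting divided reads between these copies is not known, and the level of AT2G01010 is uncertain for that reason.

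Of the 123 loci placed on the annotation, 71 (57.7%) overlapped coding exons of a gene on the opposite strand, 62 of them over more than 50% of their length. A further 49 (39.8%) overlapped no coding exon on either strand. On the same strand 16 overlapped coding exons, 3 of them (AT5G00365, AT5G06695 and AT2G08770) over more than 50% of their length. Near-identical coding sequence elsewhere in the genome was found for 12 loci, and a near-identical copy among the listed loci for 27. The strand that was counted is not given, and reads of a coding gene cannot be told apart from those of a non-coding locus that overlaps it or copies it. The loci that met the limits of length and level but lay outside the band were opposite coding exons in 54.2% of cases and overlapped none in 43.4%. GC content was also near, with medians of 41.8% and 41.6%. The loci inside the band were longer, with a median length of 1018 nt against 753 nt, and more often had several exons: 55.3% against 63.1% had 1 exon. The nuclear chromosomes 1 to 5 held 39, 27, 15, 25 and 17 of the loci.

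The genes opposite the 125 loci were varied, and the following were picked by what the opposite gene is, not by value. AT4G26095 lay opposite RPS2, which encodes a disease resistance protein that detects a bacterial effector, and had group means of 695 to 1114 CPM. AT2G33051, opposite the receptor-like protein gene RLP26, had group means of 661 to 966 CPM. AT1G07728 and AT1G51645 lay opposite EXO70H6 and EXO70G2, which encode subunits of the exocyst, a complex that tethers secretory vesicles to the plasma membrane. Their group means spanned 1780 to 2538 CPM and 1190 to 1548 CPM. Transporter genes were represented by AT2G37362 opposite ABCG2 (1822 to 3070.6 CPM), AT5G41612 opposite the cation/H+ exchanger gene CHX18 (904 to 1149 CPM) and AT1G80325 opposite MOT2 (1375 to 1934 CPM). Transcription factor genes were represented by AT3G01142 opposite MYB106 (1051 to 1425 CPM), a regulator of epidermal outgrowth, and AT1G16489 opposite MYB58 (307 to 413 CPM), an activator of lignin synthesis. Each of these 9 loci overlapped the opposite exons over more than 50% of its length.

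Mean levels covered a 336-fold range, from 207 CPM for AT4G02825 to 69447 CPM for AT2G15555, with a median of 882 CPM against 582 CPM for the abundant loci outside the band. At least 1000 CPM was reached by 52 loci and 10000 CPM by 7, while 38 stayed under 500 CPM. A few loci held most of the reads. Together AT2G15555, AT5G00365 and AT2G05914 took 43.2% of the reads on the 125 loci, and the top 10 took 64.9%. After these came AT1G05347 (15015 CPM), which lies opposite a Kunitz-type protease inhibitor gene, ATCG00950 (14651 CPM), AT4G15242 (13141 CPM) and AT5G07322 (13083 CPM). CPM does not allow for length. On the deposited TPM scale, which does and which also counts the 6 loci set aside, the highest means were 8366 TPM for AT2G15555, 6568 TPM for AT5G00365, 5654 TPM for AT5G07322 and 3352 TPM for AT2G05914. AT2G45245, the shortest of the 125 at 202 nt, had 994 CPM and stood eighth by TPM at 2035 TPM.

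**Figure D1:**
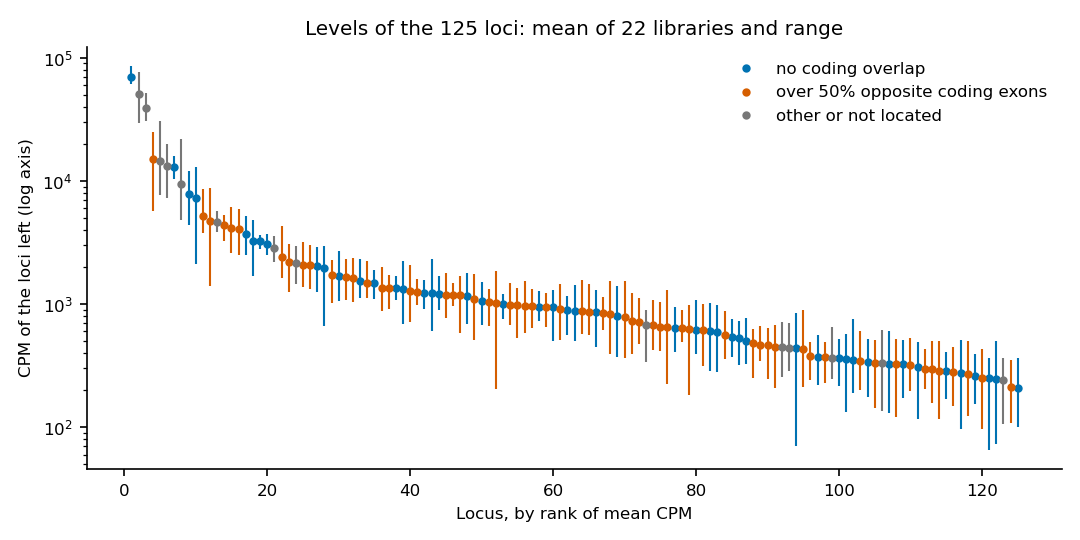
Mean CPM of the 22 libraries (points) and the lowest and highest library (lines) for the 125 loci, ranked by mean, on a log axis, with colours for their overlap with coding exons. A few loci above 10000 CPM stand over a long slope down to 207 CPM, and loci opposite coding exons are found along most of it.

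The 125 loci together took 34.5% to 40.3% of the reads left in a library, and the abundant loci outside the band took 45.2% to 54.6%. The share of the 125 was 35.6% ± 1.20 (SD, n = 3) in Ws MEZ control, 36.0% ± 0.988 (SD, n = 2) in Ws MEZ SCOOP12, 35.7% ± 1.41 (SD, n = 3) in proscoop12 MEZ control and 35.8% ± 0.700 (SD, n = 3) in proscoop12 MEZ SCOOP12. In DZ it was 37.5% ± 0.472 (SD, n = 2) in Ws control, 38.2% ± 1.82 (SD, n = 3) in Ws SCOOP12, 38.1% ± 0.976 (SD, n = 3) in proscoop12 control and 38.7% ± 1.32 (SD, n = 3) in proscoop12 SCOOP12. All 4 DZ means lay above all 4 MEZ means, while single libraries of the zones were not compared by a test. The 3 highest loci together held 14.9% to 15.4% of reads on average in the MEZ groups and 16.6% to 17.1% in the DZ groups. Of these 3 only AT5G00365 was higher in DZ, by 0.64 log2 units, while AT2G15555 differed by -0.0013 and AT2G05914 by -0.16. The other 122 held 20.6% to 20.8% in MEZ and 20.4% to 21.7% in DZ.

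Depth set how well each locus was measured. Libraries held 474434 to 1575520 estimated counts on all listed loci, of which the 6 loci set aside took 80.7% to 90.5%, so 74717 to 162745 were left and 25750 to 59959 fell on the 125. A locus between 200 and 500 CPM had a median of only 33.8 reads per library, one between 1000 and 2000 CPM 125 reads, and one above 10000 CPM 1543 reads. The library total without the 6 loci decides every CPM here. With no locus set aside the rule found 27 loci, 22 of them among the 125.

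The narrowest band belonged to AT5G00480 at 0.119. In MEZ its level was 3528, 3548 and 2878 CPM in Ws control, 3332 and 2867 CPM in Ws SCOOP12, 3645, 3261 and 2808 CPM in proscoop12 control and 3283, 3186 and 3387 CPM in proscoop12 SCOOP12. In DZ it was 3101 and 2816 CPM in Ws control, 3313, 3463 and 3324 CPM in Ws SCOOP12, 3283, 3640 and 2860 CPM in proscoop12 control and 3311, 3161 and 3073 CPM in proscoop12 SCOOP12. Ws DZ control, the lowest group, lay below Ws DZ SCOOP12 and proscoop12 MEZ SCOOP12 and overlapped the rest. Also, proscoop12 DZ SCOOP12 lay just below Ws DZ SCOOP12. The highest library was 1.30-fold above the lowest, the smallest such ratio of the 125. AT5G00480 has 2 exons, 767 nt and no coding overlap.

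AT4G02995 followed with a band of 0.125. In MEZ its level was 2794, 3346 and 2918 CPM in Ws control, 2995 and 3379 CPM in Ws SCOOP12, 3235, 3555 and 3112 CPM in proscoop12 control and 3022, 3017 and 3709 CPM in proscoop12 SCOOP12. In DZ it was 2771 and 2876 CPM in Ws control, 3424, 2985 and 2943 CPM in Ws SCOOP12, 2986, 2981 and 2704 CPM in proscoop12 control and 3238, 2515 and 3386 CPM in proscoop12 SCOOP12. No group stood clear of all the others. Both DZ control groups lay wholly below Ws MEZ SCOOP12, proscoop12 MEZ control and proscoop12 MEZ SCOOP12, and Ws DZ control also lay below Ws DZ SCOOP12.

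AT2G15555, the most read of the 125, had a band of 0.135. In MEZ its level was 62304, 71111 and 68820 CPM in Ws control, 77213 and 69509 CPM in Ws SCOOP12, 64398, 71771 and 70788 CPM in proscoop12 control and 64664, 68351 and 71746 CPM in proscoop12 SCOOP12. Its DZ levels were 67532 and 64754 CPM in Ws control, 79634, 70325 and 69422 CPM in Ws SCOOP12, 63609, 65070 and 61133 CPM in proscoop12 control and 85589, 70270 and 69813 CPM in proscoop12 SCOOP12. The 2 highest libraries were the replicate 1 libraries of the DZ SCOOP12 groups, and the whole range was 1.40-fold. All DZ control libraries (61133 to 67532 CPM) were below all DZ SCOOP12 libraries (69422 to 85589 CPM), while in MEZ the treatments overlapped. With the labels exchanged as the file names give them, the DZ treatments would overlap too. Its replicate SD, 0.101 on the log2 scale, was the smallest of the 125.

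The next narrowest bands were those of AT5G06695 (0.151, mean 4671 CPM), AT1G60545 (0.159, 895 CPM) and AT2G45245 (0.167, 994 CPM). AT5G06695 runs along coding exons of AT5G45030 on the same strand over 99.5% of its length, and reads of the gene and the locus cannot be told apart.

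The 300 bases around the start of these 3 narrowest loci show what the letters before a steadily read locus look like. They run from 250 bases before to 50 bases after the start, from RefSeq's TAIR10.1 sequence of the Columbia accession. Ws may differ from it, and the files name no build. Capitals mark matches, on either strand, to 4 motifs that were searched: the TATA box (TATAAA), the site II element of growth-related promoters (TGGGCC), the telo box (AAACCCTA) and the G box (CACGTG). None of these motifs contains another. AT5G00480 (chr5:9560081-9560380, plus strand) holds none of them, AT4G02995 (chr4:10095035-10095334, minus strand) holds the site II letters once on each strand, and AT2G15555 (chr2:6786927-6787226, minus strand) holds the TATA letters on the reverse strand.
AT5G00480: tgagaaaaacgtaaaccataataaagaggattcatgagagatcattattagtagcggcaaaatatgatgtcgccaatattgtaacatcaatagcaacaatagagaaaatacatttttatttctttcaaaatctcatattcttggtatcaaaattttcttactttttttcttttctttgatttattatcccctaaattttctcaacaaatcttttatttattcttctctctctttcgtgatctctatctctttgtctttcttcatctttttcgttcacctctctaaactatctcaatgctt
AT4G02995: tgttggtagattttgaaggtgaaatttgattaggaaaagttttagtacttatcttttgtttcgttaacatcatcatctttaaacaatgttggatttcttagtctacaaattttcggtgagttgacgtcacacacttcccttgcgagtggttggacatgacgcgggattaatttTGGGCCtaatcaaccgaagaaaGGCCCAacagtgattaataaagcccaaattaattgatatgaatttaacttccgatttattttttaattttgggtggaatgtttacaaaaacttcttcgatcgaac
AT2G15555: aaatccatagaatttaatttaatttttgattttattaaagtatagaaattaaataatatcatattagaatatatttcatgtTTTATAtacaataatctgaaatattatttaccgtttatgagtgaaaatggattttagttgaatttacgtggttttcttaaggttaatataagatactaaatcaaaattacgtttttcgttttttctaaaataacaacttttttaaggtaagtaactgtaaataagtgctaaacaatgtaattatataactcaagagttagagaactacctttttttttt

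Over the 119 loci whose RefSeq length equals that in the files, TATAAA stood in 43.7% of such windows, against 45.5% of the abundant loci outside the band and 41.4% of 4168 listed loci over 200 nt. TGGGCC stood in 21.0% of the 119 (25 loci), against 12.6% outside the band and 7.34% of all. AAACCCTA stood in 6.72%, against 5.28% and 4.51%. CACGTG stood in 0.840%, which is 1 locus, against 6.10% and 4.10%. A match is a run of letters only, and it says nothing of what binds there.

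At the other end, AT3G00720 lay just inside the limit with a band of 0.497. Its MEZ libraries held 1243, 1456 and 1218 CPM in Ws control, 1114 and 1416 CPM in Ws SCOOP12, 1333, 1342 and 1064 CPM in proscoop12 control and 1691, 1415 and 1271 CPM in proscoop12 SCOOP12. Its DZ libraries held 1983 and 2031 CPM in Ws control, 2651, 1617 and 1364 CPM in Ws SCOOP12, 2690, 2180 and 2268 CPM in proscoop12 control and 2194, 2015 and 1631 CPM in proscoop12 SCOOP12. Control DZ libraries were above control MEZ libraries in both genotypes, while the zones overlapped under SCOOP12.

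Next to it stood AT1G07203 at 0.497 and AT1G04513 at 0.495 inside the limit, and AT5G42092 at 0.503, AT1G04833 at 0.505 and AT1G01448 at 0.505 outside it. The limit therefore runs through a continuous range of values. Of the 125 bands, 13 were at most 0.2, 30 lay between 0.2 and 0.3, 37 between 0.3 and 0.4 and 45 above 0.4, with a median of 0.348. The highest group mean was 1.14-fold to 1.93-fold above the lowest, with a median of 1.51-fold. At the level limit AT4G02825 (207 CPM), AT2G45685 (211 CPM) and AT4G37225 (240 CPM) were inside, and AT3G05225 (198.3 CPM), AT3G03535 (192 CPM) and AT1G04353 (190 CPM) outside. At the length limit AT2G45245 (202 nt), AT3G07805 (203 nt) and AT5G09935 (205 nt) were inside, and AT2G04375 (195 nt), AT3G08695 (195 nt) and AT1G05273 (194 nt) outside.

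Single libraries ranged more widely than group means. The ratio of the highest to the lowest of the 22 libraries had a median of 2.59. It was under 2 for 21 loci and over 4 for 22, and was highest for AT2G01010. The spread between replicates was measured as the SD of log2(CPM + 0.5) about the group means, with 14 degrees of freedom. Its median was 0.357 for the 125 loci, with quartiles of 0.259 and 0.488, and 0.533 for the abundant loci outside the band. A locus with a wide spread is less likely to have 8 close group means, so this gap is a description.

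Counting error alone would give a median SD of 0.152 inside the band and 0.199 outside. The observed SD was above the counting SD in 124 of the 125 loci and over 2 times as large in 70. The median SD was 0.439 for 38 loci at 200 to 500 CPM, 0.338 for 35 at 500 to 1000 CPM, 0.260 for 25 at 1000 to 2000 CPM, 0.260 for 20 at 2000 to 10000 CPM and 0.236 for 7 above that. With the replicate number as a block beside the groups the median SD was 0.289, since libraries of the same number deviated together.

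**Figure D2:**
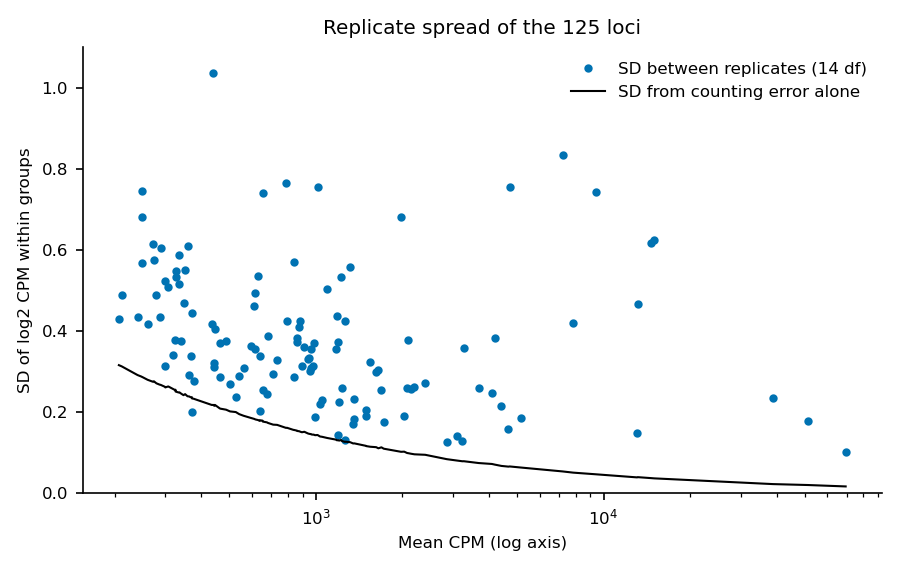
SD of log2 CPM between replicates (points, 14 degrees of freedom) and the SD from counting error alone (line) against mean CPM on a log axis, for the 125 loci. The points fall from a median of 0.439 at 200 to 500 CPM to 0.236 above 10000 CPM, and nearly all lie above the line.

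After AT2G15555, the smallest replicate SDs were those of AT1G11592 (0.126), AT5G00480 (0.130), AT5G66558 (0.131), AT4G02995 (0.142) and AT3G01142 (0.144). AT5G66558, opposite a gene of the NPH3 family of phototropic response, and AT3G01142 had counting SDs of 0.127 and 0.131, so their spread was barely above counting error. The largest SDs were those of AT2G01010 (1.04), AT4G05085 (0.834), AT1G08477 (0.766), AT2G08650 (0.754), AT2G08665 (0.754) and AT1G09745 (0.746). AT1G08477 lies opposite APR2, which encodes an enzyme of sulfate reduction. Its libraries ranged from 366 to 1528 CPM although its 8 group means stayed within a band of 0.337. For such loci close group means sit on replicates that lie far apart.

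The median SD was 0.353 in MEZ and 0.328 in DZ for the 125, and 63 of them (50.4%) had the larger SD in DZ. Of the abundant loci outside the band 67.9% had the larger SD in DZ, with medians of 0.463 and 0.559.

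TAS3 (AT3G17185), which gives rise to small RNAs that act on auxin response factor transcripts, was the most read precursor of the 125. In MEZ it stood at 9470, 6611 and 11242 CPM in Ws control, 5129 and 8519 CPM in Ws SCOOP12, 9364, 8381 and 12153 CPM in proscoop12 control and 7538, 5050 and 7767 CPM in proscoop12 SCOOP12. In DZ it stood at 6067 and 10421 CPM in Ws control, 7685, 4462 and 7742 CPM in Ws SCOOP12, 8335, 6078 and 11060 CPM in proscoop12 control and 7139, 4368 and 7922 CPM in proscoop12 SCOOP12. Replicate 4 was the highest library in all 8 groups. Within each genotype and zone, every SCOOP12 library that had a control library of the same replicate number was below it. Ws DZ SCOOP12 replicate 1 (7685 CPM) had none and lay between the Ws DZ control libraries. The log2 ratio of SCOOP12 to water was -0.42, and TAS3 was not called for SCOOP12 in the fits below. With the labels exchanged as the file names give them, Ws DZ SCOOP12 replicate 3 would hold 6078 CPM against 6067 CPM in its control.

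TAS1A (AT2G27400) and TAS1B (AT1G50055) give rise to small RNAs after cleavage guided by miR173. TAS1A had 1077, 960 and 522 CPM in Ws MEZ control, 909 and 750 CPM in Ws MEZ SCOOP12, 1002, 1189 and 696 CPM in proscoop12 MEZ control and 1407, 862 and 836 CPM in proscoop12 MEZ SCOOP12. In DZ it had 576 and 589 CPM in Ws control, 859, 669 and 504 CPM in Ws SCOOP12, 761, 712 and 369 CPM in proscoop12 control and 949, 623 and 641 CPM in proscoop12 SCOOP12. The zones overlapped. TAS1B had group means of 314 to 443 CPM.

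The other TAS loci listed did not meet the rule. TAS2 averaged 335 CPM with a band of 0.527, just over the limit. TAS1C at 154 CPM and TAS4 at 78.1 CPM were under the level asked for, with bands of 1.20 and 1.21. Both TAS2 and TAS1C were lowest in proscoop12 DZ control and highest in proscoop12 MEZ control. Of 11 named long non-coding RNAs looked up, 8 were listed and 3, TAS1A, TAS1B and TAS3, were among the 125. ASCO, an RNA that binds splicing regulators, averaged 342 CPM with a band of 3.58, and ELENA1, an immune-related RNA, averaged 45.4 CPM.

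The microRNA sites tie these precursors together and are shown to let the members be compared with TAS1C and TAS2. The mature microRNAs, from RefSeq's TAIR10.1 annotation, are written 5′ to 3′ with the seed (bases 2 to 8) in capitals. In the sites, taken from the transcripts 5′ to 3′, capitals mark the bases that do not match the reverse complement of the microRNA.
miR390a-5p: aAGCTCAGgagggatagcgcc
TAS3 site 1: ggTgTtatccTATctgagctt
TAS3 site 2: TTGTctatccctcctgagctA
miR173-5p: tTCGCTTGcagagagaaatcac
TAS1A site: gtgatttTtctctAcaagcgaa
TAS1B site: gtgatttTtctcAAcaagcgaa
TAS1C site: gtgatttTtctctAcaagcgaa
TAS2 site: gtgatttTtctctCcaagcgaa

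The TAS3 sites lie at bases 217 to 237 and 461 to 481 of the transcript, with 5 mismatches each. They differ in where these fall. The first has them near its 5′ end and in the middle, with its 3′ part fully matched, and the second has 4 at its 5′ end and 1 at its last base. The miR173 site has 2 mismatches in TAS1A, TAS1C and TAS2 and 3 in TAS1B. TAS1A and TAS1C carry the same 22 bases at bases 367 to 388, although TAS1A met the rule and TAS1C had a lower level and a wider band. The next best match in any of the 5 transcripts had at least 8 mismatches.

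Among the other loci with a symbol, ZPR4 (AT2G36307), named for a small leucine zipper protein of the LITTLE ZIPPER family and annotated here as non-coding, had group means of 1368 to 1653 CPM and a band of 0.175. U3D had group means of 1023 to 1469 CPM and U2.3 of 800 to 1132 CPM. Both snRNA and snoRNA loci have near-identical listed copies, so their own levels are uncertain.

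Differences between zones were the widest of the 3 contrasts. The log2 ratio of DZ to MEZ, each averaged over its 4 groups, ran from -0.65 (AT2G08650) to 0.64 (AT5G00365) with a median of -0.02 and a median size of 0.17. For the abundant loci outside the band the median was -0.33 and the median size 0.75. In whole root pieces, fewer cells of a type and less RNA per cell cannot be told apart. For SCOOP12 against water the log2 ratio ran from -0.42 (AT2G45685) to 0.52 (AT1G04513) with a median size of 0.11, against 0.30 outside the band. For proscoop12 against Ws it ran from -0.27 (AT1G08477) to 0.32 (AT3G26612) with a median size of 0.07, against 0.12 outside.

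AT5G00365 showed the clearest zone difference. In MEZ its level was 43517, 43071 and 29806 CPM in Ws control, 46173 and 43214 CPM in Ws SCOOP12, 36545, 39387 and 35938 CPM in proscoop12 control and 36226, 46941 and 39930 CPM in proscoop12 SCOOP12. Its DZ levels were 73836 and 66663 CPM in Ws control, 64156, 58857 and 47860 CPM in Ws SCOOP12, 68800, 77316 and 63602 CPM in proscoop12 control and 56261, 58742 and 51472 CPM in proscoop12 SCOOP12. All 11 DZ libraries were above all 11 MEZ libraries. Within DZ, every SCOOP12 library was below every control library of its genotype. With the labels exchanged as the file names give them, this would not hold in Ws. AT5G00365 shares 80.3% of its length with coding exons of AT5G11090, a serine-rich protein gene on the same strand, and whether its reads come from that gene was not tested.

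The zones were apart in the same way for AT1G09915, with 1245 to 1953 CPM in MEZ (median 1613) and 2022 to 2920 CPM in DZ (median 2545). AT2G37362, opposite the transporter gene ABCG2, had 1642 to 2080 CPM in MEZ (median 1920) and 2171 to 4331 CPM in DZ (median 2723). These 3 were the only ones of the 125 with all DZ libraries above all MEZ libraries, which held for 1.07% of 838 tested loci. For none of the 125 was every MEZ library above every DZ library. The share of all tested loci for which this held was not counted. The band limits both kinds of locus, so nothing is read from these counts.

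**Figure D3:**
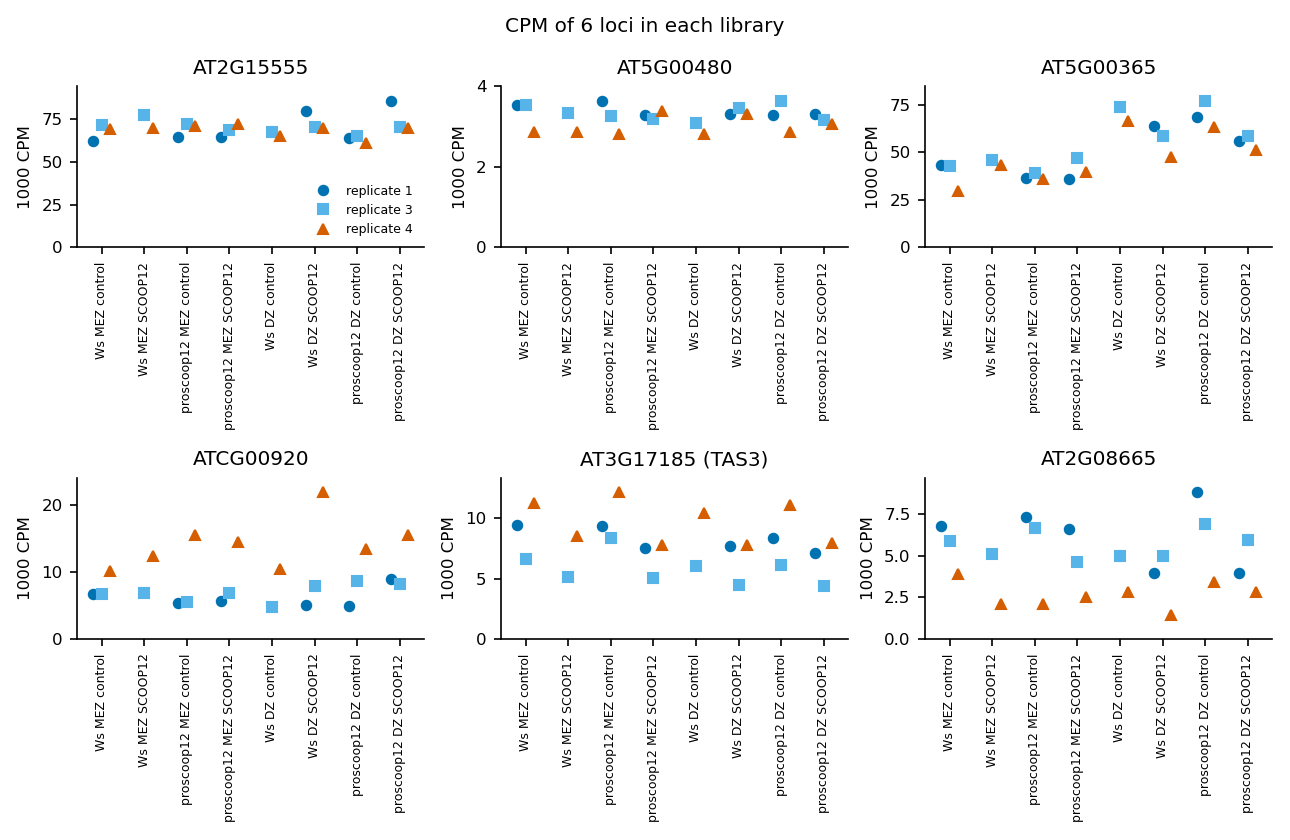
CPM divided by 1000, on axes from 0, of 6 of the 125 loci in each library, by group along the x axis and with symbols for replicates 1, 3 and 4. AT2G15555 and AT5G00480 have group means close together, although the DZ SCOOP12 libraries of AT2G15555 lie above its DZ control libraries. AT5G00365 is higher in all 11 DZ libraries. Replicate 4 is the highest library in every group for ATCG00920 and TAS3 and the lowest for AT2G08665.

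All 844 loci with enough reads entered 1 fit of edgeR's quasi-likelihood model, adjusted by Benjamini-Hochberg over all 844, with calls at an adjusted p under 0.05. All 125 loci were among them. For SCOOP12 against water 0 of the 125 were called in Ws MEZ, Ws DZ, proscoop12 MEZ and proscoop12 DZ, where 0.237%, 0.355%, 0.829% and 1.3% of all tested loci were. At an unadjusted p under 0.05 the counts were 1, 1, 2 and 3 of the 125, and 91, 69, 64 and 103 of all 844. For proscoop12 against Ws 0 of the 125 were called in MEZ control, MEZ SCOOP12, DZ control and DZ SCOOP12, where 0.118%, 0.118%, 0% and 0% of all loci were. An unadjusted p under 0.05 was found for 0 of the 125 in any of the 4, and for 14, 19, 32 and 8 of all 844. DESeq2 also called 0 of the 125 in these 8 comparisons, against 0.592%, 0.474%, 1.18% and 2.61% of all loci for SCOOP12, in the same order. With the replicate number as a block 0 of the 125 were called for SCOOP12, where 1.18%, 1.3%, 2.73% and 5.92% of all loci were. The choice of the loci used these same means, so nothing is read from the counts.

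For DZ against MEZ, 6 of the 125 were called in Ws control and 10 in proscoop12 control, where 18.4% and 19.8% of all loci were. Under SCOOP12 0 of the 125 were called in Ws and 0 in proscoop12, where 0.948% and 0.948% of all loci were. At an unadjusted p under 0.05 these last counts were 4 and 5, against 84 and 131 of all 844 loci. DESeq2 called 0 and 1, the latter AT2G37362, against 1.9% and 2.73% of all loci. Together 10 of the 125 (8%) were called in at least 1 zone comparison, as were 24.8% of all 844 loci. All 10 were higher in DZ. Of all 844 loci, 77 (9.12%) were called higher and 78 lower in Ws control, and 84 (9.95%) higher and 83 lower in proscoop12 control. By the edgeR test AT5G00365 was higher by 1.20 log2 units (SE 0.24, adjusted p = 0.0019) in Ws control and 1.19 (SE 0.22, adjusted p = 0.00058) in proscoop12 control. AT3G00720 was higher by 0.96 (SE 0.23, adjusted p = 0.0063) and 1.21 (SE 0.21, adjusted p = 0.00043) by the same edgeR test. AT4G39838, opposite AT4G39840, AT4G36032, opposite ARO3, AT1G09915 and AT2G37362 were called in both genotypes. AT1G07203, AT3G46668, opposite UGT76E11, AT5G09443 and AT2G08780 were called in proscoop12 control.

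The comparisons share control libraries, and the difference between genotypes or treatments was not tested. With the replicate number as a block 9, 24, 0 and 3 of the 125 were called in Ws control, proscoop12 control, Ws SCOOP12 and proscoop12 SCOOP12, 1 of them (AT2G09640) lower in DZ, where 23.5%, 31.8%, 6.87% and 9.6% of all loci were. The scaling bears on these folds. TMM, used in this test, made the effective library sizes of MEZ libraries larger by 0.09 log2 units on average than those of the rule, which lowers their levels, and changed those of DZ libraries by -0.09, which raises theirs. The median DZ to MEZ difference of the 125 was 0.26 log2 units with TMM and -0.09 on the scale of the rule in Ws control, and 0.20 and -0.10 in proscoop12 control. Over all 844 loci these medians were -0.04 and -0.38, and -0.05 and -0.31. On the scale of the rule 1 of the 125 was called higher and 0 lower in Ws control, and 4 higher and 1 lower in proscoop12 control. Of all 844 loci 50 were called higher and 104 lower in Ws control, and 55 higher and 110 lower in proscoop12 control.

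The rule can be applied to some libraries and the result looked at in others. File names give 1 number to replicates 1 and 3 (14 libraries) and another to replicate 4 (8 libraries, 1 a group). This number is taken here as that of the sequencing run and is called the run below. This check was added after the data had been seen. On replicates 1 and 3 alone the rule gave 103 loci, 87 of them among the 125. In the replicate 4 libraries, which that choice did not use, 46 of these 103 (44.7%) kept every group within 0.5 log2 units. Of the loci that met the same limits of length and level but had been outside the band, 19 of 282 (6.74%) did. Of the 167 that had been outside by up to 0.5 log2 units, 11.4% fell inside. Median bands in replicate 4 were 0.526 and 1.12. The median size of the log2 ratio of DZ to MEZ in replicate 4 was 0.27 for the 103 and 0.73 for the 282. The lists were not matched for level. By the rule on all 22 libraries, the median was 882 CPM inside the band and 582 CPM outside.

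Among the loci that held in both sets were AT2G15555 (bands of 0.146 and 0.216), AT2G05914 (0.235 and 0.256), AT5G07322 (0.365 and 0.168), TAS3 (0.410 and 0.342), AT5G06695 (0.170 and 0.164), AT4G38552 (0.152 and 0.261), AT5G00480 (0.108 and 0.198) and AT4G02995 (0.160 and 0.268). AT1G18382, named after its values were seen, did not: its band went from 0.296 to 1.39. A group mean of replicate 4 is 1 library, whereas that of replicates 1 and 3 is mostly the mean of 2.

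**Figure D4:**
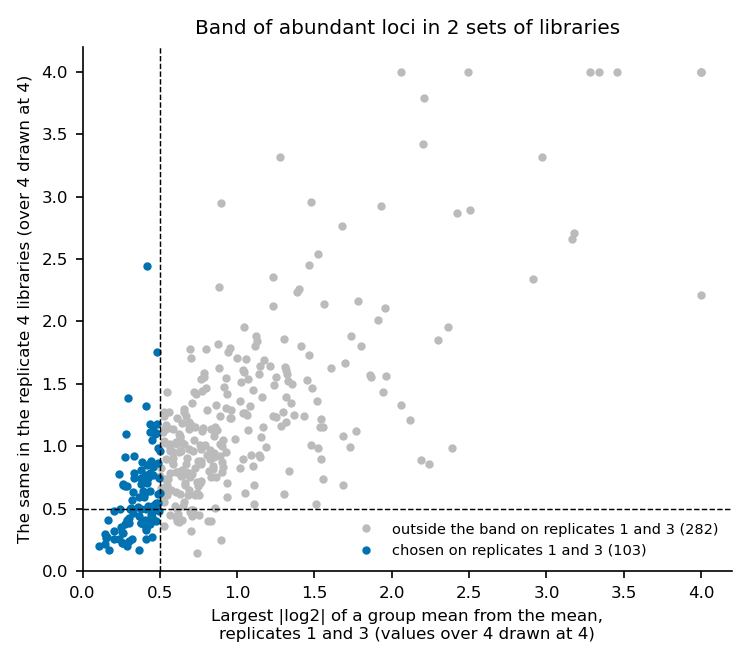
Largest departure of a group mean from the mean of the 8 (log2 units) in replicates 1 and 3 against the same in the replicate 4 libraries, for abundant loci over 200 nt, with the limit of 0.5 as dashed lines and values over 4 drawn at 4. The 103 loci chosen on replicates 1 and 3 lie lower in replicate 4 than the rest, with a median of 0.526 against 1.12. Of the 103, 46 are inside the limit there.

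The rule used group means and not the deviations of libraries about them. The difference between the runs was tested with the 8 group means in the model. This test is not fully independent of the rule. Replicate 4 is 1 of 2 libraries in Ws MEZ SCOOP12 and Ws DZ control and 1 of 3 in the other groups. A run difference therefore shifts the group means unequally. Replicate number and run cannot be told apart. By edgeR's quasi-likelihood test 13 of the 125 (10.4%) differed between runs at an adjusted p under 0.05, the same share as the 10.4% of all 844 tested loci. Among the abundant loci outside the band the share was 19.7%, and the choice by band can affect this gap, which is a description. Of the 13, 8 were higher and 5 lower in the replicate 4 run, where 5.09% and 5.33% of all loci were. A run effect that differed between DZ and MEZ was called for 0 of the 125 and for 0% of all 844 loci. By edgeR 1 of the 125 and 28 of all 844 had an unadjusted p under 0.05 in that test, which was added after the data had been seen.

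The largest difference was that of ATCG00920. In MEZ its level was 6677, 6783 and 10172 CPM in Ws control, 6937 and 12362 CPM in Ws SCOOP12, 5434, 5486 and 15561 CPM in proscoop12 control and 5716, 6896 and 14532 CPM in proscoop12 SCOOP12, with replicate 4 last in each group. DZ libraries held 4821 and 10515 CPM in Ws control, 5099, 7910 and 21974 CPM in Ws SCOOP12, 4865, 8730 and 13518 CPM in proscoop12 control and 8911, 8152 and 15611 CPM in proscoop12 SCOOP12. All 8 replicate 4 libraries were above all 14 others, by 1.29 log2 units (SE 0.16, adjusted p = 5.8e-05, edgeR), although the band was 0.321. The share of all tested loci without overlap between the runs was not counted, here or for the loci named below.

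ATCG00950, the other plastid locus, ran from 16028 to 30791 CPM (median 18971) in the replicate 4 run and from 7767 to 14894 CPM (median 11046) in the other, again without overlap. The difference was 1.04 log2 units (SE 0.16, adjusted p = 0.00035, edgeR). TAS3 was higher in the replicate 4 run by 0.68 (SE 0.11, adjusted p = 0.00056, edgeR), but its runs overlapped: 7742 to 12153 CPM against 4368 to 9470 CPM. Within the other run, its replicate 3 libraries had a median of 5598 CPM and its replicate 1 libraries one of 8010 CPM. These overlapped, at 4368 to 8381 CPM and 7139 to 9470 CPM, although replicate 3 was below replicate 1 in each of the 6 groups that hold both.

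AT2G08665, opposite the light-harvesting protein gene LHB1B2, was the reverse. In MEZ its level was 6771, 5903 and 3881 CPM in Ws control, 5100 and 2118 CPM in Ws SCOOP12, 7314, 6651 and 2112 CPM in proscoop12 control and 6600, 4647 and 2525 CPM in proscoop12 SCOOP12, with replicate 4 last. In DZ it was 4991 and 2842 CPM in Ws control, 3972, 5014 and 1407 CPM in Ws SCOOP12, 8830, 6932 and 3441 CPM in proscoop12 control and 3955, 5976 and 2796 CPM in proscoop12 SCOOP12. Every replicate 4 library was below every other one, by -1.01 log2 units (SE 0.14, adjusted p = 0.00011, edgeR). AT5G09285, opposite CIP8, was also without overlap, with 124 to 202 CPM in the replicate 4 run against 222 to 506 CPM, a log2 difference of -0.75.

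The other loci called lower in the replicate 4 run were AT2G19582 (-0.66 log2 units), opposite the tetraspanin gene TET2, AT5G01255 (-0.73), opposite NHL3, a membrane protein gene of pathogen response, and AT1G05347 (-0.60). Those called higher were AT1G15405 (0.78), AT4G26582 (0.72), opposite the oligopeptide transporter gene OPT5, AT4G04565 (0.60), AT2G00610 (0.59) and AT1G17232 (0.46), opposite a leucine-rich receptor kinase gene. Replicates 1, 3 and 4 had medians of 1164, 588 and 397 CPM for AT5G01255 and 21339, 15512.5 and 11010 CPM for AT1G05347. For AT2G19582 they were 384, 362 and 223 CPM. Replicates 1 and 3 share a run, so the medians of AT5G01255 and AT1G05347 also differed within it. All 5 called lower overlapped coding exons on the opposite strand, as did 2 of the 8 called higher. Of the 62 loci mostly opposite coding exons 36 were higher and 26 lower in the replicate 4 run, with a median log2 difference of 0.12, and 2 were called higher and 4 lower. Of the 49 without coding overlap 34 were higher and 15 lower, with a median of 0.08, and 4 were called higher and 0 lower. The difference between these classes was not tested. Over the other tested loci the median was -0.21 for 341 mostly opposite coding exons, with 8 called higher and 24 lower. It was 0.01 for 299 without coding overlap, with 23 called higher and 11 lower.

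ATCG00920, ATCG00950, AT2G08665, TAS3, AT2G19582, AT4G26582 and AT5G09285 stayed called in each of the 22 fits that left out 1 library. AT1G17232 stayed in 7. The count of 13 fell to 7 without Ws DZ SCOOP12 replicate 4 and to 8 without proscoop12 MEZ SCOOP12 replicate 4. On the scale of the rule, where the median of all 844 loci moved from -0.06 to -0.23 log2 units, 5 of the 125 were called higher and 11 lower in the replicate 4 run. Of all 844 loci 31 were called higher and 81 lower on that scale.

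**Figure D5:**
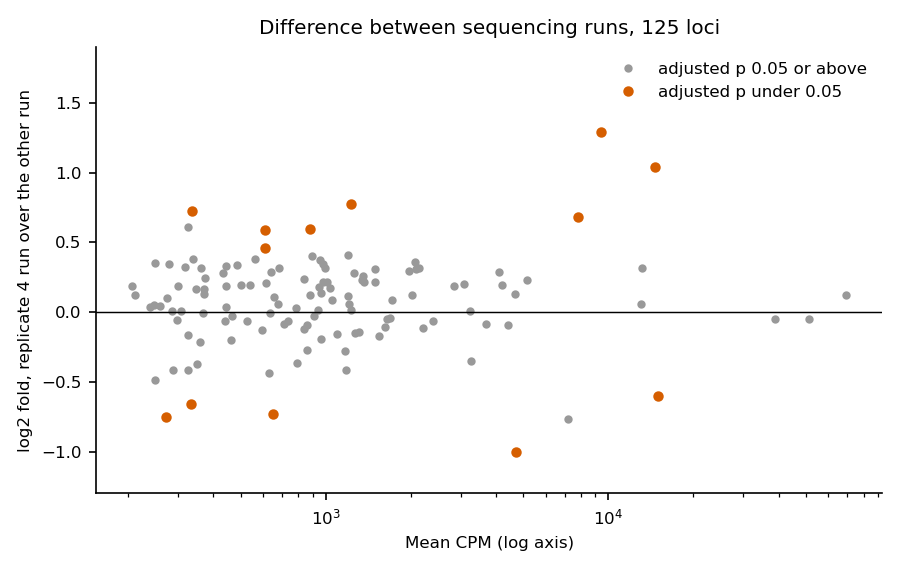
Log2 fold of the replicate 4 run over the other run within groups (edgeR, TMM) against mean CPM on a log axis for the 125 loci, with loci at an adjusted p under 0.05 in orange. The 13 called loci lie on both sides of 0, 8 above and 5 below, and run from 272 to 15015 CPM.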

How the data were processed

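Per the labels, RNA was extracted from each root sample and sequenced from stranded mRNA libraries as paired reads on a NovaSeq. The authors' deposited tables hold, for each transcript of non-coding loci, an estimated count and a TPM value, both from Salmon, per the file headers and the submitters' processing notes. The TPM and estimated counts were deposited per library, without pooling. The sources used here give neither a Salmon version, a build, an annotation nor a strand setting. The files list no protein-coding genes, so totals cover non-coding loci only.

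CPM was computed after 6 loci above 2% of a library had been left out. Replicate SD used log2(CPM + 0.5). Estimated counts were rounded to whole numbers and tested on all 844 loci that passed a filter (minimum count 10, minimum total 15) with edgeR 4.0.16 (TMM, quasi-likelihood, 8 groups), limma 3.58.1 and R 4.3.3. Adjustment was by Benjamini-Hochberg at 0.05. DESeq2 1.42.0 was an alternative, and the method was tested on simulated data. The run test added the run, as read from a number in the file names, to the groups. Tables were handled with Python 3.11.15 and pandas 2.3.3, and copies were found with blastn 2.17.0 (identity of at least 95% over 100 nt, or over 90% of the shorter sequence).

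Same-numbered libraries deviated together from their group means: r was 0.112 to 0.799 within a zone (30 of 30 pairs over 0.1) and -0.207 to 0.694 between zones (39 of 41). Numbers were taken from the labels. Because this pairs the samples, values with the replicate number as a block stand beside results that they change. The 20 pairs of replicates of a group differed by more than sampling noise.

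The loci and lists were chosen with earlier results of these data known. Loci named in the text are those at the top in level, at the ends of band and replicate SD, past a test, at or above 1000 CPM, with a symbol, or nearest a threshold. A few more were named for the gene opposite them. Alternatives changed each limit of the rule, the scaling, the filter, the tool and each library in turn. The check in replicate 4, the run effect by zone and the run effect by overlap were added after the data had been seen.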

Additional observations from a re-analysis of the deposited data

How the results depend on the processing

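The number of loci depends most on which loci are set aside and on the band. The rule gave 125 loci, 27 with no locus set aside, 80 with a band of 0.4, 277 with a band of 1, 63 from TPM rescaled over the loci left (50 shared with the 125) and 64 from replicate 4 alone. Other limits gave 95 to 155, and TMM scaling gave 126, of which 95 were shared. Leaving out 1 library at a time gave 109 to 126 loci, and 44 of the 125 were chosen in all 22 cases. The median replicate SD of 0.357 became 0.289 with the replicate block and 0.330 to 0.371 with 1 library left out. The counts of 0 for SCOOP12 and for genotype stayed at 0 in all 8 other settings and with each library left out (0 to 0). The 10 loci called between zones became 25 with the replicate block, 5 on the scale of the rule and 5 without the count filter, and 8 to 13 with 1 library left out. The 13 called between runs became 7 to 16 with 1 library left out and 11 to 17 in the other settings. Over all 844 loci the share called in at least 1 zone comparison was 24.8%, and 37.7% with the replicate block. Between runs 10.4% of all loci were called by edgeR and 11.8% by DESeq2. Such shares over all loci were not counted for every setting. Leaving out a library of a group with 2 leaves 1, which is then assumed to vary like the other groups. The replicate block changed no call for SCOOP12 or genotype among the 125. Over all 844 loci, 2.01% were called in at least 1 SCOOP12 comparison, and 8.18% with the block. For genotype the share was 0.118% in both fits. The choice of the 125 used these same group means, so nothing is read from their counts of 0. The cause was not tested for any of these shifts. Depth limits the loci under 500 CPM, which had a median of 33.8 reads per library.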
